A study of Mus musculus with 6 samples.

Results

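The stem cells at the base of intestinal crypts were examined through 10 genes, namely Lgr5, Ascl2, Olfm4, Smoc2, Tnfrsf19, Axin2, Rnf43, Znrf3, Lrig1 and Slc12a2. They were chosen by name as markers of crypt base cells or as feedback regulators of Wnt signaling, out of 55416 genes in the table. Each name matched a single Ensembl gene, all 10 genes had reads in every library, and all 10 passed the filter on low values. RNA was sequenced from small intestinal crypt organoids of 3 mice labelled C57BL/6 and WT, and no age or sex is given in the labels. Organoids are epithelial buds that grow from isolated crypts in a gel, and here the crypts came from duodenum and jejunum. Organoids of each mouse were treated with LDL (50 μg/ml) or with PBS as the control for 5 days, which gave 3 LDL-treated and 3 PBS-treated libraries. The animal identifier and the genotype label of mouse 3 differ in form, so the log2 fold change of each of the 10 genes is also given without that mouse.

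Crypt base stem cells divide throughout life, and Wnt signals from the surrounding niche hold them in that state. Wnt ligands bind Frizzled receptors and stabilize β-catenin, which acts with TCF factors on target genes. Some of these targets restrain the pathway in turn. AXIN2 is part of the complex that degrades β-catenin, and RNF43 and ZNRF3 are membrane ubiquitin ligases that remove Frizzled receptors. R-spondins, through LGR5 and its relatives, clear these ligases and so raise the response to Wnt.

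Between 22061545 and 31073360 reads per library lay on genes. The LDL-treated library of mouse 1 stood apart, with reads on 35781 genes against 29285 to 32751 in the others and 7.62% of its reads on Rn18s-rs5, a ribosomal RNA gene. The epithelial marker Epcam had normalized counts of 20049 to 24334. Summed over 9 stromal markers, the counts were 38.2 to 104 with LDL and 59.4 to 104 with PBS, and over 6 immune markers they were 231 to 295 and 229 to 299. A gene was called when its adjusted p-value from limma was under 0.05 and its change exceeded 1.5-fold, with the mouse fitted as a block over 18459 genes.

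LDL did not move the 10 genes together. Ascl2 and Tnfrsf19 were called higher, Olfm4 and Smoc2 were called lower, and the other 6 were not called. Thus 2 of 10 were higher and 2 of 10 lower, where 5.68% of all genes tested were called higher, 3.46% lower and 9.14% either way. On the adjusted p-value alone 3 were higher, with Rnf43, and 2 lower, against 8.27% and 7.45% of all genes and 15.7% either way. At an unadjusted p-value under 0.05 there were 5, against 30.1% of all genes. The median log2 fold change of the 10 genes was 0.18, against -0.016 for all genes. The 3 values of each treatment were apart for these 4 genes and Rnf43, that is 5 of 10, and for 24.2% of all genes tested. The same 5 moved in 1 direction in all 3 mice, 3 up and 2 down, against 24.2% up, 26.8% down and 51.1% either way over all genes. In these bulk samples, a change in the number of cells of a type and a change of RNA per cell cannot be told apart. Treated as independent groups, without the block, none of the 10 genes was called (limma, adjusted p-values between 0.0765 and 0.695), although 5 had an unadjusted p-value under 0.05, as did 19.7% of all genes. DESeq2 without the block called 2 of them higher and 1 lower.

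**Figure D1:**
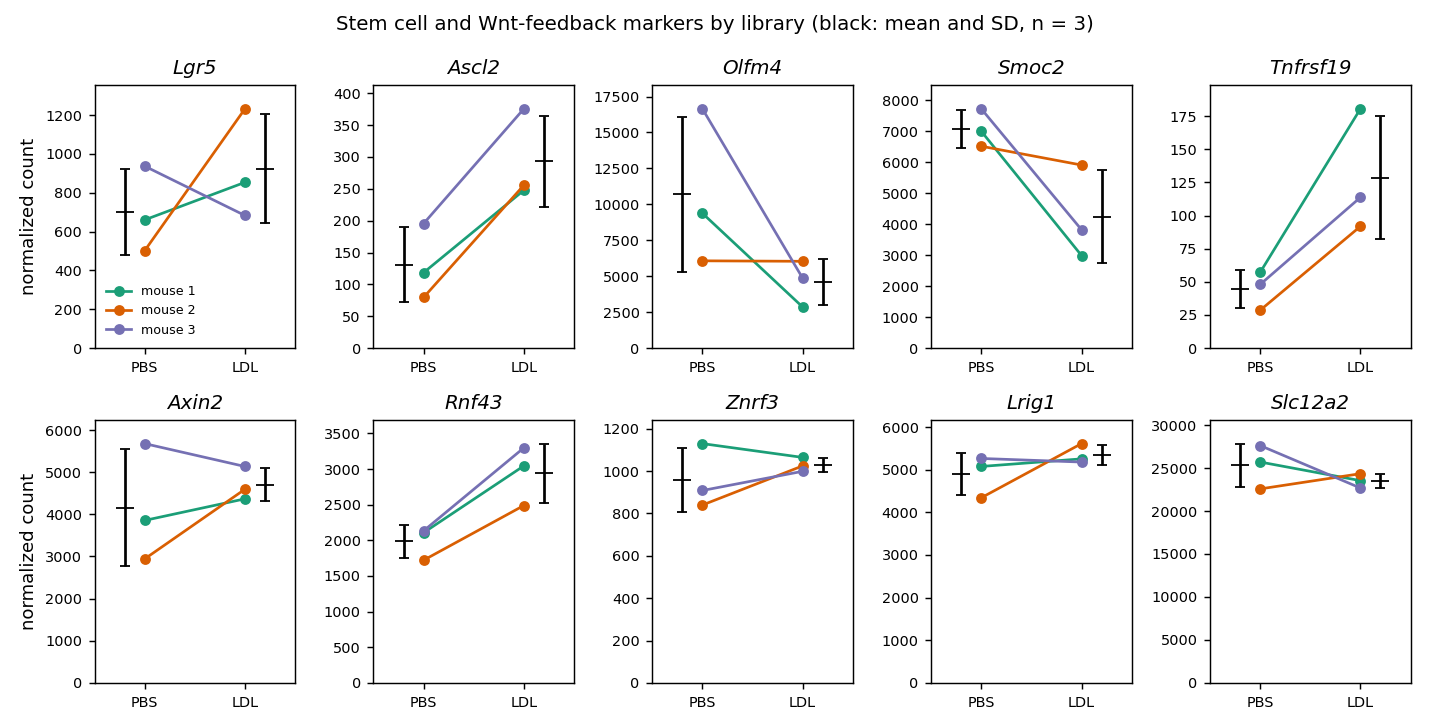
Normalized counts (y axis, from 0) of each gene in PBS- and LDL-treated organoids, with a line joining the libraries of a mouse and black marks for the mean and SD of 3 libraries. Ascl2, Tnfrsf19 and Rnf43 rise in every mouse, Olfm4 and Smoc2 fall steeply in mice 1 and 3 and little in mouse 2, and the lines of Lgr5 cross.

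Ascl2 encodes a basic helix-loop-helix transcription factor that is itself a Wnt target and sustains stem cell identity. It lies on chromosome 7 of GRCm39 from 142520564 to 142523006 (ENSMUSG00000009248). Its normalized counts were 248, 256 and 375 in LDL-treated organoids of mice 1, 2 and 3, and 118, 79.5 and 195 in PBS-treated ones. The lowest LDL-treated value was thus above the highest PBS-treated value, and mouse 3 was highest under both treatments. Within the mice the counts rose 2.09-, 3.21- and 1.92-fold, a log2 fold change of 1.22 ± 0.17 (SE, limma with the block, adjusted p = 0.00333). That change was larger than in 96.8% of the genes tested. Without the block it was not called (limma, adjusted p = 0.104), and without mouse 3 the log2 fold change was 1.36 (limma, adjusted p = 0.0502).

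Tnfrsf19, also known as Troy, encodes a TNF receptor family member found on crypt base cells. The gene spans 61201283 to 61284366 on chromosome 14 (ENSMUSG00000060548). It was the least abundant of the 10, with 23 to 148 reads per library. Its normalized counts were 181, 91.8 and 114 with LDL in mice 1, 2 and 3, and 57.2, 28.6 and 48.0 with PBS. All LDL-treated values lay above all PBS-treated values, and the rise within the mice was 3.16-, 3.21- and 2.37-fold. The log2 fold change was 1.51 ± 0.18 (SE, limma with the block, adjusted p = 0.00223), and it stayed past the threshold when any mouse was left out, with values of 1.43 to 1.65, the highest without mouse 3. Without the block it was not called (limma, adjusted p = 0.0765).

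Olfm4 encodes a secreted glycoprotein, olfactomedin 4, that is abundant in crypt base cells of the small intestine. On chromosome 14, it occupies 80221521 to 80260579 (ENSMUSG00000022026). LDL-treated organoids of mice 1, 2 and 3 had normalized counts of 2858, 6039 and 4864, and PBS-treated ones had 9379, 6073 and 16644. The groups did not overlap, but only by the small distance between the 2 libraries of mouse 2. The LDL-treated value was 0.305 and 0.292 times the PBS-treated value in mice 1 and 3, and 0.994 times in mouse 2. The mean was 4587 ± 1609 with LDL and 10699 ± 5408 with PBS (SD, n = 3), and the log2 fold change was -1.17 ± 0.30 (SE, limma with the block, adjusted p = 0.0386). The call was lost when mouse 1 or mouse 3 was left out, with log2 fold changes of -0.89 and -0.86 (limma, adjusted p = 0.0913 and 0.323). It was kept without mouse 2, with -1.74 (limma, adjusted p = 9.38e-13). With a mouse left out, limma takes the error largely from the variance over all genes and little from the gene's own spread between mice. These p-values are therefore not comparable with that of the fit with all mice. With all mice the size stayed about the same across fits, at -1.17 without the block (limma, adjusted p = 0.156), -1.16 in DESeq2 with the block (adjusted p = 0.153) and -1.16 in edgeR with the block (adjusted p = 0.0353), of which edgeR alone kept the call.

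Smoc2 encodes a secreted calcium-binding matrix protein that marks the same cells. The gene is located on chromosome 17 from 14499735 to 14625074 (ENSMUSG00000023886). Its normalized counts were 2988, 5908 and 3820 with LDL in mice 1, 2 and 3, and 6997, 6515 and 7721 with PBS. Every LDL-treated library was below every PBS-treated one, with ratios of 0.427, 0.907 and 0.495 within the mice. As for Olfm4, mouse 2 had the smallest change. The log2 fold change was -0.79 ± 0.18 (SE, limma with the block, adjusted p = 0.0254). Without mouse 1 it was -0.58 (limma, adjusted p = 0.0675), and without mouse 3 it was -0.68 (limma, adjusted p = 0.260). Without mouse 2 it was -1.12 (limma, adjusted p = 1.42e-09). The limit given for Olfm4 on p-values without a mouse holds here too. With all mice, the call was lost without the block in limma (-0.79, adjusted p = 0.118) and in DESeq2 with the block (-0.78, adjusted p = 0.0533), and kept in DESeq2 without the block (-0.73, adjusted p = 0.0227).

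Lgr5, the R-spondin receptor by which crypt base stem cells are usually identified, lies on chromosome 10 from 115286216 to 115423685 (ENSMUSG00000020140). Normalized counts were 854, 1232 and 683 in LDL-treated organoids of mice 1, 2 and 3 and 660, 502 and 937 in PBS-treated ones. The ranges overlapped, and the mice went different ways. The LDL-treated value was 2.45 times the PBS-treated one in mouse 2, 1.29 times in mouse 1 and 0.729 times in mouse 3. The log2 fold change was 0.40 with a 95% confidence interval of -0.22 to 1.03 (limma with the block, adjusted p = 0.366). It was -0.043 without mouse 2 and 0.83 without mouse 3, so its direction rested on mouse 2. As a fold, the interval ran from 0.859 to 2.04.

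The relative amounts of these markers within a library were compared after the values had been seen. The ratio of Olfm4 to Ascl2 normalized counts was 79.2, 76.4 and 85.2 in PBS-treated organoids of mice 1, 2 and 3. With LDL it was 11.5, 23.6 and 13.0. The PBS-treated values thus lay close together, although their Olfm4 counts spanned 6073 to 16644, and it was lower with LDL in every mouse. For Olfm4 to Lgr5, the ratio was 14.2, 12.1 and 17.8 with PBS and 3.35, 4.90 and 7.12 with LDL. These ratios carry no test, since the pairs of genes were picked for their difference. For 3 libraries against 3, the smallest exact two-sided permutation p-value is 0.1, and for 3 pairs it is 0.25.

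Among the Wnt-feedback genes, only Rnf43 passed the test of its change. Rnf43 is on chromosome 11 from 87553548 to 87626377 (ENSMUSG00000034177). It had normalized counts of 3044, 2488 and 3297 with LDL in mice 1, 2 and 3, and of 2107, 1721 and 2133 with PBS. The groups did not overlap, and the rise was alike in the mice, at 1.44-, 1.45- and 1.55-fold. Its log2 fold change was 0.56 ± 0.073 (SE, limma with the block, adjusted p = 0.00279), the smallest error of the 10 genes. The change was 1.48-fold, just under the 1.5-fold limit, so the gene was not called, while edgeR with the block placed it just past that limit with a log2 fold change of 0.59. Without the block the adjusted p-value from limma was 0.0884, and without mouse 3 it was 0.0939, with a log2 fold change of 0.53.

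Its paralog Znrf3, on chromosome 11 from 5226324 to 5394939 (ENSMUSG00000041961), gave counts of 1065, 1025 and 999 with LDL and 1130, 840 and 909 with PBS in mice 1, 2 and 3. The LDL-treated values fell inside the PBS-treated range, and the log2 fold change was 0.11 with a 95% confidence interval of -0.11 to 0.33 (limma with the block, adjusted p = 0.476). Axin2, on chromosome 11 from 108811169 to 108841609 (ENSMUSG00000000142), is widely used as a readout of Wnt activity. It had counts of 4368, 4595 and 5136 with LDL and 3856, 2943 and 5679 with PBS. The groups overlapped, and the LDL-treated value was 1.56 times the PBS-treated one in mouse 2, 1.13 times in mouse 1 and 0.904 times in mouse 3, the same order of mice as for Lgr5. The log2 fold change was 0.23 with a 95% confidence interval of -0.09 to 0.54 (limma with the block, adjusted p = 0.316). The upper end of the interval was a 1.46-fold rise. As for Lgr5, the estimate moved with single mice, to 0.017 without mouse 2 and 0.41 without mouse 3, and without mouse 3 the log2 fold change of Znrf3 was 0.10.

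Lrig1 encodes a membrane protein that damps ErbB receptor signaling and marks stem and progenitor cells of the crypt. It is located on chromosome 6 from 94581510 to 94677242 (ENSMUSG00000030029). Its counts were 5253, 5611 and 5178 with LDL and 5075, 4342 and 5263 with PBS in mice 1, 2 and 3. The groups overlapped, with a log2 fold change of 0.13 and a 95% confidence interval of -0.09 to 0.35 (limma with the block, adjusted p = 0.405). Lrig1 shares 1475 exon bases with Slc25a26 on the other strand. Slc12a2 (ENSMUSG00000024597) encodes the sodium, potassium and chloride cotransporter NKCC1 of the basolateral membrane, which is rich in crypt cells. It was the gene with the most reads, with counts of 23539, 24349 and 22684 with LDL and 25707, 22577 and 27623 with PBS. The estimated log2 change was -0.10 with a 95% confidence interval of -0.36 to 0.16 (limma with the block, adjusted p = 0.599), so a change of 1.5-fold either way lay outside the interval for both genes. Without mouse 3 the log2 fold changes were 0.21 for Lrig1 and -0.0091 for Slc12a2, and neither was called.

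**Figure D2:**
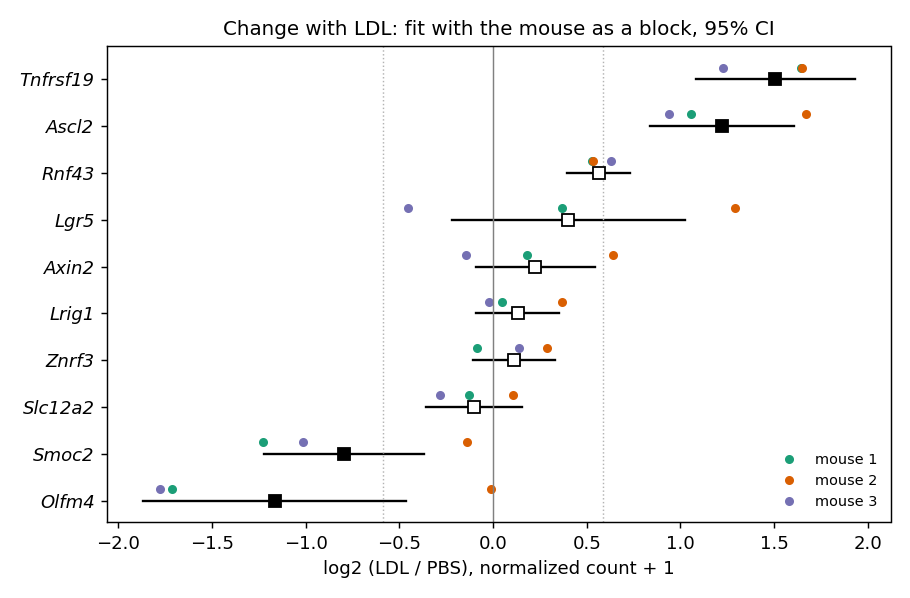
Log2 ratio of LDL to PBS (x axis, normalized count + 1) for the 10 genes, with squares for the fit with the mouse as a block, bars for the 95% confidence interval, filled squares for called genes and colored points for each mouse. Dotted lines mark a 1.5-fold change, and the point of mouse 2 lies highest for 9 of the 10 genes, among them Olfm4 at -0.0080 and Lgr5 at 1.29.

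Sequence just upstream of the start of 1 transcript per gene is shown for a pair of genes called in opposite directions and for Axin2, read from GRCm39 at the canonical GENCODE M39 transcripts, 250 bases on the strand of the gene. Whole windows that overlapped an annotated exon are not shown. Ascl2, called higher, has at chr7:142523007-142523256 (minus strand) a window with 68% G and C and no match to the TCF motif letters CTTTGAA or CTTTGAT on either strand. Olfm4, called lower, has at chr14:80237441-80237690 (plus strand) 50.4% G and C and 1 match, in capitals, 238 bases before the start. This window precedes the start of the canonical transcript, which lies inside the span of the gene given above, since that span also covers a transcript that begins further upstream, as is the case for Axin2.
Ascl2: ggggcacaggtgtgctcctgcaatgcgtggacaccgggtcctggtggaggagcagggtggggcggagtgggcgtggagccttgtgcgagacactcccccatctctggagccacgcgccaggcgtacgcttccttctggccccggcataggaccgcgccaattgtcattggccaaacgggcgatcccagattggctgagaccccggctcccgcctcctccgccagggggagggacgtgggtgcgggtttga
Olfm4: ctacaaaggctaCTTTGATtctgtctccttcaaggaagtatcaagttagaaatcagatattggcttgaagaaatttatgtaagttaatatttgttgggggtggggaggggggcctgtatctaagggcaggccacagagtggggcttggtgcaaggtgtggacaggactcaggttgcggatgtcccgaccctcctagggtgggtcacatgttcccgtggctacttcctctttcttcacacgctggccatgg
Axin2: ctcggctcgcgcCTTTGAAgtgcacagtta
The line for Axin2, the gene most often used to read Wnt activity, is only a stretch of 30 bases, since an annotated exon overlaps its window, at chr11:108811604-108811633 (plus strand) whose match starts 22 bases before the start site. Of the 10 genes, 2 had a match in this window, and so did 7.54% of 21770 protein-coding genes. A match is a description of letters and not a binding site.

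The order of the mice differed between the treatments. In PBS-treated organoids, mouse 2 had the lowest normalized count for all 10 genes, and mouse 3 the highest for 8 of 10. The order mouse 3, mouse 1, mouse 2 held for 8 genes with PBS and for 1 gene with LDL. The log2 ratio of LDL to PBS was highest in mouse 2 for 9 of the 10 genes, all but Rnf43, and the low PBS-treated value enters this ratio. The shares of all genes with these orders were not counted, so the orders are not shown to be particular to the 10 genes. Over the 6 libraries, the deviations from the treatment means were most alike for Slc12a2 and Lrig1 and for Ascl2 and Axin2 (Pearson r = 0.97 for both pairs), and most opposed for Smoc2 and Tnfrsf19 (r = -0.52) and for Smoc2 and Rnf43 (r = -0.47). Olfm4 and Smoc2, the pair called lower, had r = 0.73, and the gene most like Lgr5 among the 10 was Slc12a2 (r = 0.89). These values describe 6 libraries from 3 mice and share their size factors.

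On a scale per length, RPKM, which divides the reads of a gene by its exon length in kb and by the reads of the library, Olfm4 and Slc12a2 had the highest levels in PBS-treated organoids, with 140 ± 74.1 and 77.4 ± 11.1 (SD, n = 3). Their ranges overlapped. Lrig1, Smoc2 and Axin2 followed with levels of up to 32.8, 32.8 and 32.4 in single libraries, and neighbors in this order overlapped. Rnf43 came next at a level of 11.8 ± 1.91 (SD, n = 3), apart from Axin2 above it and Znrf3 below it. Znrf3, Ascl2 and Lgr5 had levels of 4.65, 3.15 and 2.66, with overlap between neighbors, and Tnfrsf19 had the lowest level with 0.234 ± 0.086 (SD, n = 3). With LDL, the level of Olfm4 was 59.3 ± 23.7 (SD, n = 3), which put Slc12a2 first. Smoc2 moved from the fourth to the fifth place, and Ascl2 moved above Znrf3. Divided by the longest transcript instead of all exons, the PBS-treated level of Lgr5 was 5.70, above the 3.18 of Ascl2, and that of Smoc2 was 61.9. For comparison, the other R-spondin receptor gene of the gut epithelium, Lgr4, had a level of 24.3 with PBS and 22.9 with LDL, well above Lgr5.

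**Figure D3:**
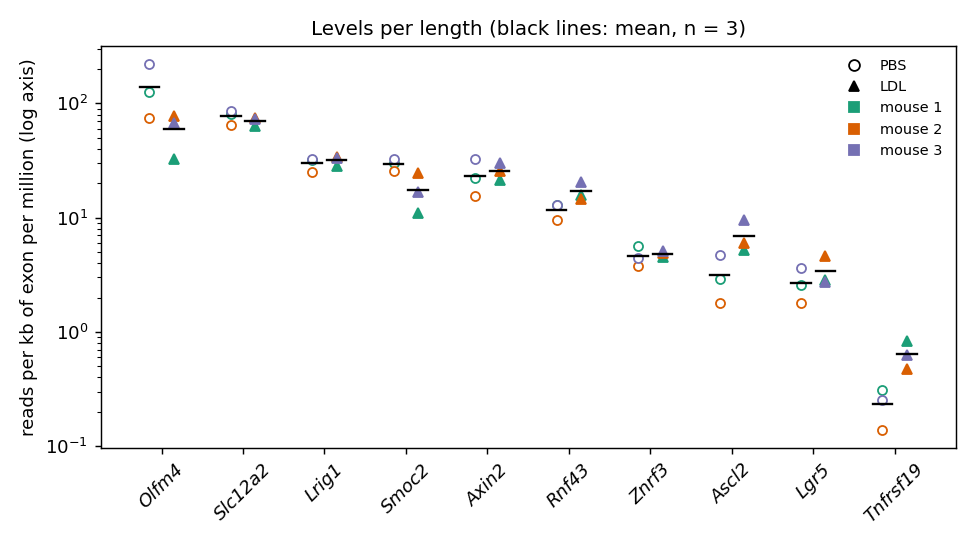
RPKM over the reads on genes (y axis, log scale) for each gene, with open circles for PBS, triangles for LDL, colors for the mice and black lines for means of 3 libraries. Olfm4 drops from 140 to 59.3 and Tnfrsf19 stays lowest, at 0.234 with PBS and 0.644 with LDL.

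Among other Wnt targets and feedback genes, those called were all higher with LDL. Of 14 tested genes in a list of 19, 4 were called higher and 0 lower, against 5.68% and 3.46% of all genes. In all 3 mice 9 were higher and 2 lower, against 24.2% and 26.8% of all genes. Sp5, a transcription factor gene induced by Wnt, rose from 38.5 to 93.6 normalized counts with PBS to 168 to 268 with LDL, a log2 fold change of 1.75 (limma with the block, adjusted p = 0.000819). Tcf7, which encodes TCF1, rose with a log2 fold change of 1.01 (limma with the block, adjusted p = 0.00194), and Ccnd1, which encodes cyclin D1, with 0.73 (limma with the block, adjusted p = 0.000915). Cd44, the hyaluronan receptor gene, rose with 1.16, although its groups overlapped. All 4 stayed called when any mouse was left out, and none was called without the block (limma, adjusted p = 0.0537 for Sp5). Ephb2 and Sox9 passed the p-value threshold with log2 fold changes of 0.34 and 0.37, below the fold limit. Nkd1, an inhibitor of Dishevelled, had a log2 fold change of 0.84 from only 13.1 ± 3.89 counts with PBS and was not called (limma with the block, adjusted p = 0.106). Nkd2, in the same list, went the other way and was not called either. It was lower in all 3 mice, with a log2 fold change of -0.79 from 30.3 counts with PBS (limma with the block, adjusted p = 0.122). The median over the 14 genes was 0.35.

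The R-spondin receptors and the core of the Wnt pathway were called in neither direction. None of 17 tested genes in a list of 22 was called, and their median log2 fold change was 0.022. The p-value threshold alone was passed by 2, against 15.7% of all genes. These were Lrp5, a Wnt coreceptor gene (log2 fold change 0.56, limma with the block, adjusted p = 0.00295), and Ctnnb1, which encodes β-catenin (0.32, limma with the block, adjusted p = 0.0360). Lgr4 had normalized counts of 4493 ± 122 with LDL and 4688 ± 326 with PBS (SD, n = 3), which overlapped. Among paralogs of the 10 genes, 1 of 10 tested was called, against 9.14% of all genes either way. This was Lrig3, with 748 ± 149 counts with LDL against 1235 ± 79.2 with PBS (SD, n = 3). Its log2 fold change was -0.74 (limma with the block, adjusted p = 0.00315).

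Further crypt base genes were called in both directions. A list of 17 genes shares Cd44, Ephb2 and Sox9 with the Wnt targets. In it 5 were called higher and 1 lower, against 5.68% and 3.46% of all genes, and the median log2 fold change was 0.34. Besides Cd44, those higher were Phlda1, Slc14a1, Igfbp4 and Msi1, with log2 fold changes of 1.77, 1.24, 1.19 and 0.88. Igfbp4 encodes a binding protein of insulin-like growth factors, Msi1 an RNA-binding protein of stem cells and Slc14a1 a urea transporter. The gene called lower was Aqp4, a water channel, at -0.67 (limma with the block, adjusted p = 0.0424). Rgmb, a coreceptor gene for bone morphogenetic proteins, had -0.58, just under the fold limit. For Aqp4 and Rgmb mouse 2 again had the smallest change, at -0.026 and -0.13, against -1.05 and -0.82 in mouse 1. Prom1 and Kcnq1 had log2 fold changes of 0.0090 and -0.098. None of these genes was called without the block, the call of Aqp4 was lost without mouse 1 or mouse 3, that of Slc14a1 without mouse 1 and that of Msi1 without mouse 3.

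Of 4 genes described as markers of reserve stem cells, none was called, where 9.14% of all genes were called either way. Of the 4 genes, 3 were lower in all 3 mice, against 26.8% of all genes. Bmi1, a Polycomb gene, had normalized counts of 848 ± 97.6 with LDL and 1012 ± 42.3 with PBS (SD, n = 3), a log2 fold change of -0.26 (limma with the block, adjusted p = 0.0921). Hopx had -0.12, with overlapping values. Of 12 proliferation genes, none was called, with a median of -0.0030, and Mki67 had 36973 ± 3299 counts with LDL and 38555 ± 1821 with PBS (SD, n = 3).

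Genes of other cell states moved in the same libraries. Over all genes tested, 5.68% were called higher and 3.46% lower. All 9 tested genes of a list of fetal-like and regenerative epithelium were called higher, with a median log2 fold change of 3.45, and their summed counts were 22596, 2033 and 16545 with LDL in mice 1, 2 and 3 and 1056, 184 and 794 with PBS. Mouse 2 had the smallest sum under both treatments, and Olfm4 and Smoc2 changed least in it, but a link was not tested. The log2 fold changes were 5.08 for Clu, which encodes clusterin, 4.58 for Sprr1a and 4.08 for Il1rn. Within mice 1, 2 and 3 the rise was 36.3-, 28.8- and 38.4-fold for Clu and 67.3-, 9.51- and 26.3-fold for Sprr1a. None of the 9 was called without the block. Of 9 goblet cell genes Spink4, Fcgbp, Agr2 and Tff3 were called lower, with log2 fold changes of -0.86 for Fcgbp and -0.73 for Tff3, and Clca1 higher, with 2.81, and the sums were 30664 to 37095 with LDL and 52897 to 57633 with PBS. Of 10 Paneth cell genes Itln1, Defa24 and Defa17 were lower and Mmp7 and Pnliprp2 higher, with sums of 14325 to 17284 and 18162 to 29235, while the lysozyme gene Lyz1 was not called (log2 fold change -0.33). Of 9 enteroendocrine genes Gip and Tac1 were lower, with sums of 7704 to 11941 against 9920 to 15430. Tuft cell genes had Pou2f3 called lower, 1 of 4 tested, with sums of 186 to 494 against 242 to 340. Among 10 enterocyte genes Fabp1, Alpi, Apoa4 and Fabp2 were higher and Lct lower, with a median log2 fold change of -0.060. On the adjusted p-value alone 4 were higher and 3 lower. The sums over the 10 were 61996 to 153572 against 41862 to 88454, with mouse 2 highest under both treatments. Fabp1 made up a large part of the LDL-treated sums, with 26670, 69615 and 36032 counts in mice 1, 2 and 3 against 4197, 10487 and 5127 with PBS. Keratin genes Krt8, Krt18 and Krt20 were the 3 of 9 epithelial genes called higher. None of these lists had a member at 0 in all libraries. The part of these shifts in the changes of the stem cell markers was not tested.

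**Figure D4:**
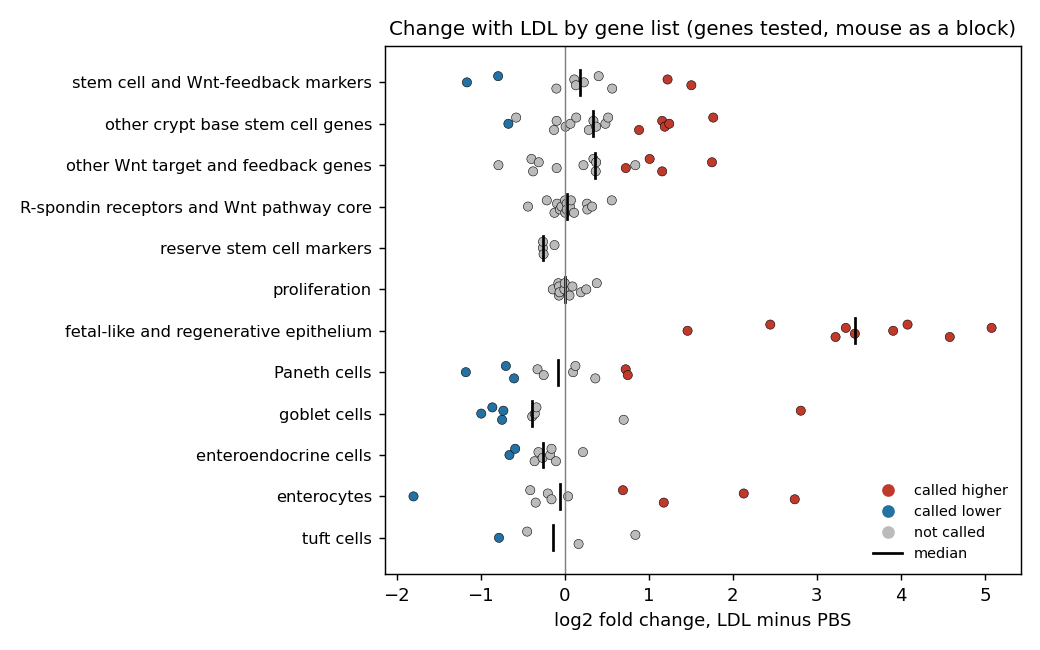
Log2 fold change of LDL against PBS (x axis) for each tested gene (points) of the 10 markers and of 11 further lists, with called genes in color and black lines for medians. The medians of the stem cell and Wnt lists lie between -0.26 and 0.35, and that of the fetal-like list at 3.45.

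The genes whose normalized counts followed Lgr5 most closely over the 6 libraries, among 11939 genes with a mean of at least 100, were Gm7192, Gm3815, Fignl1, Zfp119a and Snx5, with Pearson r of 0.998 to 0.959. For Axin2 they were Gm6788, Inafm2, Gm44777, Afap1l1 and Gm13123, with r of 0.981 to 0.962. None of the other markers searched was among the 5 nearest of either gene. Tnfrsf19 had a mean under 100 and so was not searched.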

How the data were processed

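The authors deposited normalized counts, here a signal value per gene, made with bcl2fastq 2.20, STAR on GRCm39, featureCounts and DESeq2. The strand setting of the counting is not given in the sources used here, so reads of overlapping antisense genes could be shared. Every value was a whole multiple, within 0.01, of 1 number per library, which gave back the reads (100% of values). Names came from GENCODE M39 (54749 of 55416 identifiers). Genes whose mean normalized count reached 10 (18459) were compared as log2 of the normalized count plus 1 with limma 3.58.1 (R 4.3.3, trend, two-sided, Benjamini-Hochberg over all genes tested), which puts fold changes on that scale. Replicate numbers share an animal identifier, so the mouse was a block, and libraries of the same mouse correlated after removal of treatment means (r = 0.48, 0.42 and 0.46 across genes, which are not independent replicates). Alternatives were no block, pseudocounts of 0.5 and 5, other filters and scalings, edgeR 4.0.16, DESeq2 1.42.0, and leaving out libraries or mice. The genes and lists were chosen with earlier results of these data known. Named genes were the 10 markers, called members of the Wnt and stem cell lists and a few set reference genes. The 5 nearest to Lgr5 and Axin2 were also named. Called members of the other lists were named as well, limited to the 3 largest changes in a list with over 6. Epcam, Rgmb, Prom1, Kcnq1, Ephb2, Sox9, Nkd1, Nkd2, Lrp5, Ctnnb1 and the marker ratios were added after values were seen. Another gene set for naming and some sequence are not reported here. Figures were drawn with matplotlib 3.10.9 in Python 3.11.15.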

Additional observations from a re-analysis of the deposited data

How the results depend on the processing

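The count of markers called was 2 higher and 2 lower with the mouse as a block. It was 0 and 0 with no replicate block. DESeq2 with the block gave 2 higher and 0 lower, and DESeq2 without it 2 and 1. With edgeR there were 3 higher, Rnf43 included, and 2 lower. Leaving out a mouse gave 1 to 2 higher and 0 to 2 lower, and leaving out 1 library without the block gave 0 and 0, except for 3 and 2 when it was the LDL-treated sample of mouse 2. Over all genes, 1048 were higher and 639 lower. Without the block they were 162 and 73, DESeq2 without the block called 348 lower, and any fold change let 1375 be lower. Without a mouse there were 265 to 1604 higher and 77 to 1348 lower, with the highest counts without mouse 2. Such fits take the error largely from the variance over all genes, as given for Olfm4. With no block and a single LDL-treated library of mouse 1, 2 or 3 left out, they were 100, 1179 and 18 higher and 44, 1133 and 2 lower, and with a PBS-treated one left out 27, 55 and 39 higher and 3, 9 and 7 lower. In the wider stem cell and Wnt lists, 8 genes were higher and 1 lower. With no block it was 0 and 0, with any fold 14 and 2, with an unadjusted p-value 2 were lower, DESeq2 called 0 lower with or without the block, without a mouse 7 to 9 were higher and 0 to 5 lower, and without 1 library and the block 0 or 1 were higher and 0 lower, except for 8 and 2 when it was that same sample. The log2 fold change of Lgr5 ran from -0.043 to 0.83 when a mouse was left out, reversed without mouse 2, that of Lgr4 from -0.13 to 0.0059, also reversed without mouse 2, and that of Hopx reversed to 0.030 when the LDL-treated sample of mouse 1 was dropped (no block). Under quantile normalization Mki67 had 0.049, also reversed. The causes were not tested. The other alternatives, which were pseudocounts, filters, scalings and edgeR, kept the 4 calls of Ascl2, Tnfrsf19, Olfm4 and Smoc2 and their directions. The length of the longest transcript in place of all exons brought the level of Lgr5 with PBS from 2.66 to 5.70 and that of Smoc2 from 29.5 to 61.9. Tnfrsf19, with as few as 23 reads in a library, had the least depth of the 10 genes.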
